A study of Mus musculus with 12 samples.

Results

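The Ly6 genes described here are Ly6a, Ly6c1, Ly6c2, Ly6d, Ly6e, Ly6i and Ly6k, 7 of the 24028 genes counted in RNA-seq of mouse bone marrow cells. They were taken by name, whatever their values, as members of the Ly6 family of surface proteins that the tables measured. The 12 libraries fall into 4 groups of 3, all from C57BL/6 mice. The wt LSK group came from control mice with wild-type alleles and held lineage-depleted marrow cells sorted on c-Kit and Sca-1. The other 9 libraries came from iMLL-ENL mice, in which doxycycline turns on a knocked-in MLL-ENL leukemia fusion gene, and which received doxycycline up to acute leukemia. The iMLL-ENL total group held leukemic cells of unsorted marrow, and the B220 LOW and B220 HIGH groups held leukemic cells sorted for low or high B220, an isoform of CD45. The labels give no age, no knock-in locus and no doxycycline for the control mice. They give 3 mice per genotype without tying a library to a mouse, so p-values reflect only how libraries of a group vary.

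Ly6 proteins are small cysteine-rich proteins that most often sit on the outer cell surface through a glycosylphosphatidylinositol (GPI) lipid anchor. In marrow they are best known as sorting markers: Sca-1, the product of Ly6a, marks mouse stem and progenitor cells, Ly6C marks monocytes and some other leukocytes, and Ly6D marks lymphoid progenitors that lean to the B lineage. Several Ly6 genes are induced by interferons.

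All 7 genes lie on chromosome 15 (GRCm38). From low to high coordinate they are Ly6d (NCBI gene 17068, chr15:74762056-74763567), Ly6k (76486, chr15:74796874-74799968), Ly6e (17069, chr15:74955025-74959904), Ly6i (57248, chr15:74979534-74983434), Ly6a (110454, chr15:74994877-74998031), Ly6c1 (17067, chr15:75044018-75048920) and Ly6c2 (100041546, chr15:75108161-75112066). Ly6a and Ly6i overlap the annotated RNA gene Gm28068, and the library kit did not keep strand, so their counts are uncertain. Near-identical copies also share reads. Of the 50-base stretches in their protein-coding transcripts, 32.8% in Ly6c1, 31.2% in Ly6c2, 19.0% in Ly6a and 4.76% in Ly6i also occur in another gene's transcript, against 0% in Ly6d, Ly6e and Ly6k. How the authors counted such reads is not given in the sources used here.

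Ly6c1 and Ly6c2 are the closest pair. Their longest reading frames are identical at 367 of 394 aligned bases (93.1%), while Ly6a matched Ly6i at 86.4%, Ly6c2 at 84.6% and Ly6c1 at 80.5%. The first 90 coding bases of both Ly6c genes, from GENCODE transcripts on GRCm38, show how far apart 2 genes with very different counts are. The 6 bases that differ are in capitals.
Ly6c1: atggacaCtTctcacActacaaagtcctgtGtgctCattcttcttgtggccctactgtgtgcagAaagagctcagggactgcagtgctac
Ly6c2: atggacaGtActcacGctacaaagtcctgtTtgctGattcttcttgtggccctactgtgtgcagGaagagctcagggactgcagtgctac

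The windows around their start sites are also alike. RefSeq promoter windows on GRCm38.p6 were matched for these 2 of the 7 genes (Ly6c1 chr15:75048788-75049087, Ly6c2 chr15:75111922-75112221). Each runs from 250 bases before to 50 bases after a start site on the minus strand, at 75048837 in Ly6c1 and 75111971 in Ly6c2. These are the outermost start sites among the windows given. The gene spans above reach further upstream, to 75048920 and 75112066. They align locally over 265 bases, of which 211 are identical (79.6%), with 18 gap bases. Capitals mark the runs of at least 12 bases that both windows hold, 47 of the 300 bases in each.
Ly6c1: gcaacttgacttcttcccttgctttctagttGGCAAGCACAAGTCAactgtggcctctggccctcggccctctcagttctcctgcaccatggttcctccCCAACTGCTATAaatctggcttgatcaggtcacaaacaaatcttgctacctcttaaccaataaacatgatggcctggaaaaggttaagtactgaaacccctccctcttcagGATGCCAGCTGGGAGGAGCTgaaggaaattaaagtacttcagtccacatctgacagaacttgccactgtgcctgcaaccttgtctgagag
Ly6c2: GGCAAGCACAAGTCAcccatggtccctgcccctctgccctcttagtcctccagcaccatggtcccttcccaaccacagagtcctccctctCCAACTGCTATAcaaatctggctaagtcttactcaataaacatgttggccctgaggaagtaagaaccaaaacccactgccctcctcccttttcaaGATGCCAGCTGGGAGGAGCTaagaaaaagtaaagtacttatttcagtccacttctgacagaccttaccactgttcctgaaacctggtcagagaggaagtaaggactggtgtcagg

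Short motifs were searched on both strands of these windows, chosen after the sequences and the values had been seen. The Ly6c2 window holds the ETS core GGAAGT at positions -106 and 28 from the window's start site and the RUNX core TGTGGT, read on the opposite strand, at position -179. The Ly6c1 window holds neither, and holds TATAAA at position -143. RefSeq gives 4 windows for the 2 genes, and the other Ly6c1 window, not printed, does hold GGAAGT. None of the 4 holds the interferon element (GAAA, any 2 bases, GAAA), the interferon-gamma element TTCNNNGAA or the C/EBP core TTGCNNAA. Of 32851 promoter windows of the same length, 23.8% hold GGAAGT, 16.8% TGTGGT, 13.6% TATAAA, 3.44% the interferon element, 8.30% TTCNNNGAA and 10.8% TTGCNNAA. A match is a description of these letters only.

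The libraries held between 10921521 counts (lowest in B220 HIGH) and 22706882 counts (highest in iMLL-ENL total), with ranges of 18227843 to 19607722 for wt LSK and 13441696 to 16626820 for B220 LOW. Levels are CPM, the usual depth-scaled read count, over the library total. Means are given ± SD (n = 3). Kit, the other gate of the LSK sort, stood at 1161 ± 164 CPM in wt LSK against 123 ± 32.0 in iMLL-ENL total, and Ptprc, which encodes CD45, at 427 ± 185 in B220 LOW and 562 ± 33.7 in B220 HIGH. Ptprc counts do not separate the B220 isoform. The 6 stem cell marker genes listed summed to 1160 to 1521 CPM in wt LSK and to at most 11.2 CPM in any leukemic library. A pair of libraries stood apart in several genes below. The first, wt LSK replicate 2, had 1365 CPM over 10 B lineage genes against 328 and 392 in the other two. The second, B220 HIGH replicate 2, had 36.6 CPM over 5 T and NK cell genes against 0.303 and 2.01.

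**Figure D1:**
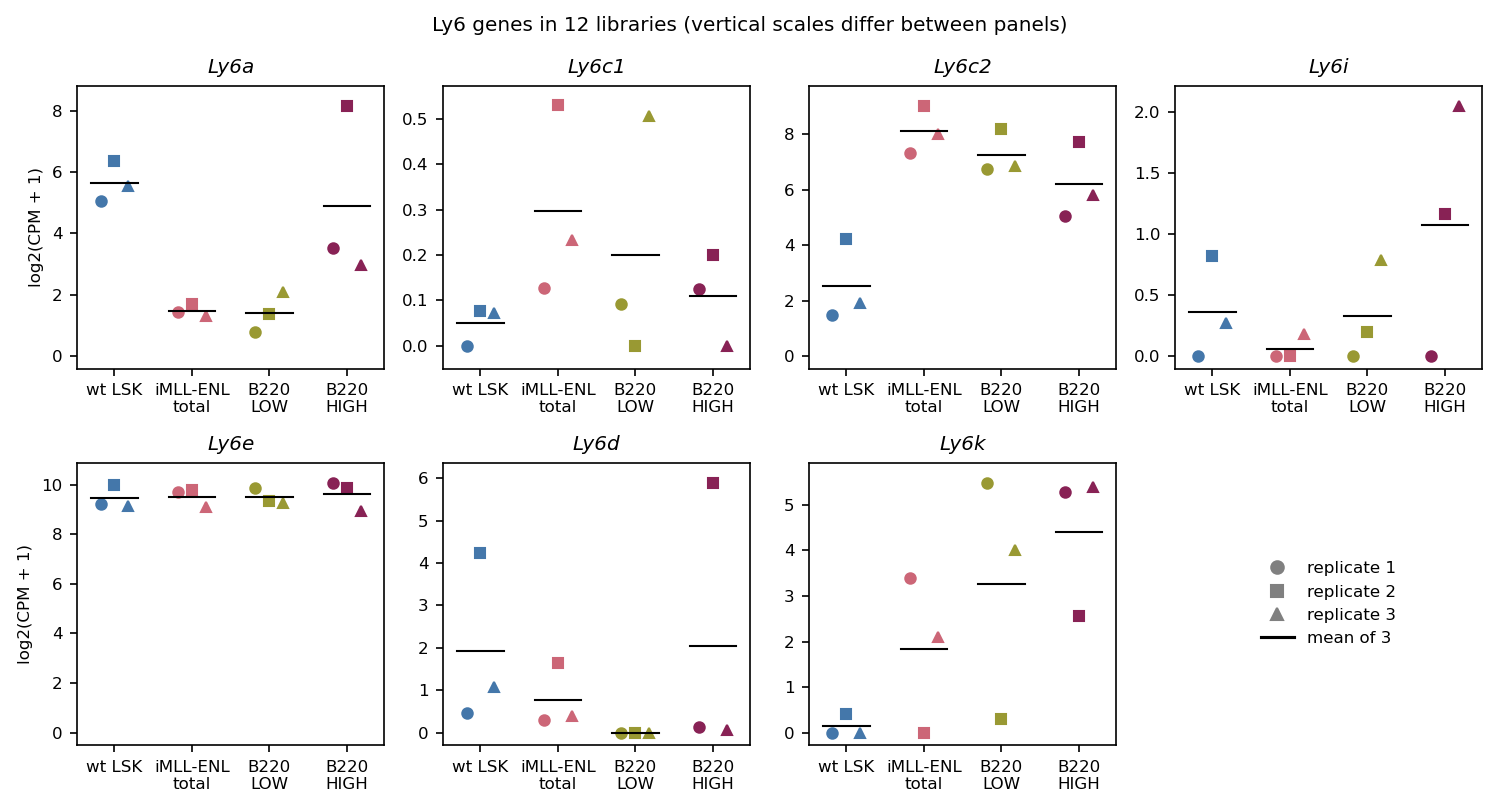
Level of each Ly6 gene as log2(CPM + 1) in the 12 libraries, by group, with marker shapes for the replicate number and a line at the mean of 3. Ly6a is high in wt LSK and in B220 HIGH replicate 2 (285 CPM), Ly6c2 is high in every leukemic library (32.2 CPM or more), and Ly6e lies between 489 and 1088 CPM throughout.

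Ly6a, which encodes Sca-1, fell in leukemic marrow relative to wt LSK, which the Sca-1 gate selects for a high level. Its level was 32.5, 82.1 and 45.4 CPM in wt LSK replicates 1, 2 and 3 and 1.71, 2.22 and 1.50 CPM in iMLL-ENL total. The lowest wt LSK library lay far above the highest leukemic one. The log2 change was -4.71 (SE 0.41, edgeR adjusted p = 0.000125), from 53.3 ± 25.7 to 1.81 ± 0.372 CPM. The gate, the genotype, the leukemia and the doxycycline cannot be told apart here, and in bulk libraries fewer cells of a type and less RNA per cell cannot be told apart either.

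Within the leukemic cells, Ly6a was near the total marrow level in B220 LOW and higher in each B220 HIGH library. It had 0.720, 1.56 and 3.25 CPM in B220 LOW replicates 1, 2 and 3 and 10.5, 285 and 6.88 CPM in B220 HIGH. The groups did not overlap, but one library, B220 HIGH replicate 2, held 5716 of the 5967 counts of its group. The log2 difference was 5.79 (SE 1.68), with an unadjusted p of 0.0107 and an edgeR adjusted p of 0.480, so the gene was not called. Without B220 HIGH replicate 2 the difference was 2.22 (adjusted p = 0.999), and without both number 2 libraries 2.08. DESeq2 gave no adjusted p for it. Within same-numbered libraries the B220 HIGH level was 14.6, 182 and 2.12 times the B220 LOW level. It was higher in 3 of 3, which any pairing of groups that do not overlap would give. Ordered by group mean, B220 HIGH and wt LSK overlapped, wt LSK lay apart from B220 LOW, and B220 LOW overlapped iMLL-ENL total.

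Ly6c2, one of a pair of genes for the Ly6C antigen of monocytes, moved the opposite way in leukemic marrow. Its level was 1.77, 17.7 and 2.75 CPM in wt LSK replicates 1, 2 and 3 and 158, 519.6 and 256 CPM in iMLL-ENL total. Every leukemic library lay above every wt LSK library. The log2 change was 5.59 (SE 0.96, edgeR adjusted p = 0.00396), from 7.42 ± 8.94 to 311 ± 187 CPM. Without wt LSK replicate 2, which had the highest wt LSK level, the change was 7.17 (adjusted p = 0.000918). Without iMLL-ENL total replicate 2, which had the highest leukemic level, it was 5.02 (edgeR adjusted p = 0.0256). With no filter the edgeR adjusted p was 0.0325.

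Marker genes of myeloid cells differed between the same groups. All 6 monocyte genes listed were called higher in iMLL-ENL total, with sums of 73.4 to 227 CPM in wt LSK against 1352 to 2864 CPM in iMLL-ENL total, and so were all 6 neutrophil genes, with sums of 1181 to 1949 and 5313 to 21975 CPM. Of all genes tested, 15.5% were called higher. None of these 12 genes was at 0 in any of the 6 libraries. Their part in the Ly6c2 result was not tested.

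Ly6c2 was also high in both B220 fractions. It had 106, 291 and 115 CPM in B220 LOW replicates 1, 2 and 3 and 32.2, 212 and 55.1 CPM in B220 HIGH. The fractions overlapped, and in both, as in iMLL-ENL total, replicate 2 was the highest. The log2 difference of B220 HIGH from B220 LOW was -0.71 (SE 0.73, edgeR adjusted p = 0.914), and ranged from -1.89 without B220 HIGH replicate 2 to -0.06 without B220 LOW replicate 2, with -0.28 without B220 HIGH replicate 1 and -0.40 without B220 HIGH replicate 3. Within same-numbered libraries the B220 HIGH level was 0.305, 0.729 and 0.479 times the B220 LOW level, lower in 3 of 3. With the replicate number as a block in edgeR's fit the difference was -1.02 (SE 0.26, unadjusted p = 0.00351, adjusted p = 0.157), which was not called. The group means of iMLL-ENL total, B220 LOW and B220 HIGH each overlapped their neighbour, and B220 HIGH lay apart from wt LSK.

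Ly6c1, the partner of Ly6c2, was close to the floor of detection in all 12 libraries. It had 0, 1 and 1 counts in wt LSK replicates 1, 2 and 3, then 2, 8 and 4 in iMLL-ENL total, 1, 0 and 7 in B220 LOW, and 1, 3 and 0 in B220 HIGH. The iMLL-ENL total libraries lay above those of wt LSK by as little as 1 read, and the other neighbouring groups overlapped. The ratio of iMLL-ENL total to wt LSK was 6.34, with a 95% counting interval of 1.46 to 57.5 (14 counts against 2). Ly6c2 made up 98.2% to 100% of the counts over both genes, with the lowest exact binomial bound at 89.4% in wt LSK replicate 1, which had 33 counts. This split rests on how reads common to both genes were counted.

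Ly6e, a broadly expressed interferon-inducible member, was the most abundant of the 7 genes by count in all 12 libraries and did not pass the test in either comparison. It had 594, 1023 and 559 CPM in wt LSK replicates 1, 2 and 3, 823, 875 and 548 in iMLL-ENL total, 929, 655 and 616 in B220 LOW, and 1088, 920.1 and 489 in B220 HIGH. All neighbouring groups overlapped. The log2 change of iMLL-ENL total from wt LSK was 0.21 (SE 0.27, edgeR adjusted p = 0.603). The log2 difference of B220 HIGH from B220 LOW was 0.22 (SE 0.28, adjusted p = 0.938), with the pairs split at 1.17, 1.41 and 0.793 times.

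Compared per length, as CPM per kilobase of the deposited gene width, the make-up of Ly6 expression differed between the groups. Ly6e stood at 315 ± 112 CPM per kilobase in wt LSK against 325 ± 76.3 in iMLL-ENL total, and Ly6c2 at 9.26 ± 11.2 against 389 ± 233. Ly6e thus held 77.2% to 88.0% of the summed Ly6 level per length in wt LSK but 36.8% to 62.8% in iMLL-ENL total, ranges that did not overlap. Ly6c2 held 0.754% to 3.84% and 34.6% to 62.7%, and Ly6a 11.0% to 15.5% and 0.214% to 0.301%. In B220 HIGH replicate 2, Ly6a at 284 and Ly6c2 at 265 CPM per kilobase came near Ly6e at 399.8.

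**Figure D2:**
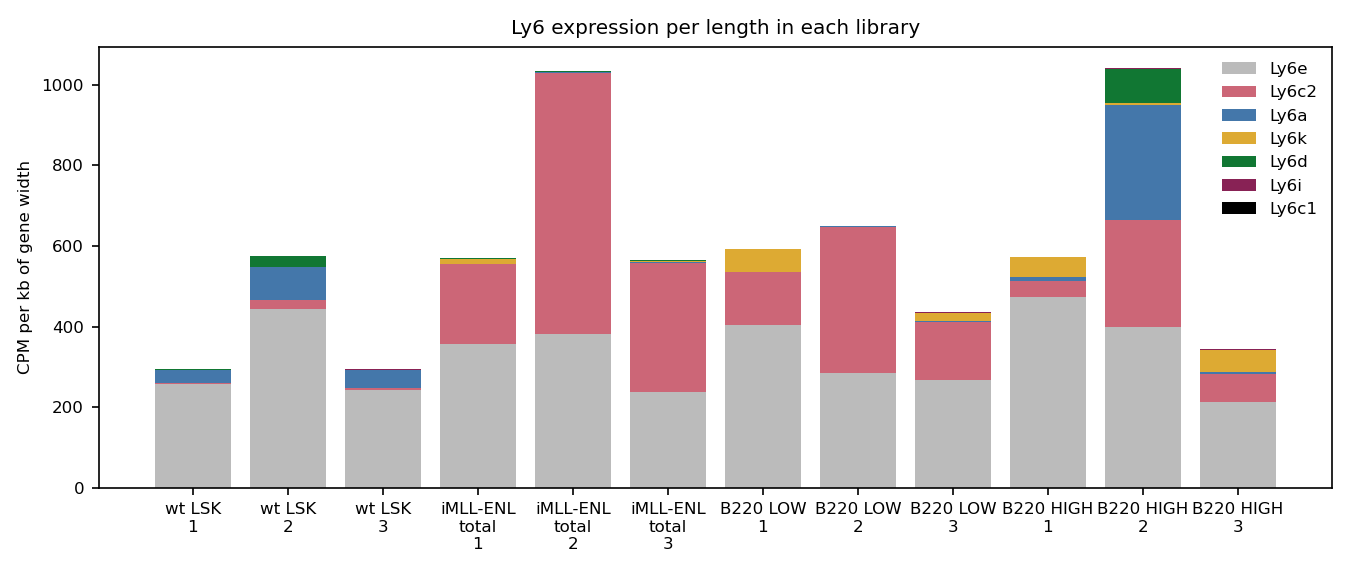
Summed level of the Ly6 genes in CPM per kilobase of gene width in each of the 12 libraries, stacked by gene. Ly6e is the main layer in wt LSK (77.2% to 88.0%), Ly6c2 makes up 34.6% to 62.7% in iMLL-ENL total, and the Ly6a and Ly6d layers widen in B220 HIGH replicate 2.

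Ly6d, a marker of lymphoid progenitors, was unevenly spread over libraries. It had 7, 326 and 22 counts in wt LSK replicates 1, 2 and 3 (0.376, 17.9 and 1.12 CPM) and 5, 38 and 7 in iMLL-ENL total (0.232, 2.11 and 0.308 CPM). Replicate 2 was highest in both groups, which overlapped. The log2 difference was -2.68 (SE 1.43, edgeR adjusted p = 0.199), and without wt LSK replicate 2 it was 0.30 (adjusted p = 0.888).

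In the sorted leukemic cells Ly6d was found in essentially one library. It had 0 counts in each B220 LOW library and 1, 1181 and 1 counts in B220 HIGH replicates 1, 2 and 3, the second at 58.8 CPM. A count of 0 over the B220 LOW group allows up to 0.0662 CPM (3 counts), and B220 HIGH replicates 1 and 3 stood at 0.0916 and 0.0506 CPM. The gene was below the filter, and in the fit with no filter its adjusted p was 0.706.

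Lymphoid markers also differed between these libraries. The 10 B lineage genes summed to 41.4, 185 and 238 CPM in B220 HIGH replicates 1, 2 and 3, with 5, 0 and 4 of them at 0 counts, and to 13.7 to 26.0 CPM in B220 LOW. Il7r, a receptor gene of early lymphoid cells, made up 29.1, 128 and 225 CPM of the B220 HIGH sums. In B220 HIGH replicate 2 Ebf1, an early B cell factor, had 14.1 CPM, while Pax5, which fixes B cell identity, had 2 counts. Siglech, a plasmacytoid dendritic cell gene, had 66.7 CPM there against 0.458 and 2.02 CPM in the other two, and 74.7 CPM in wt LSK replicate 2 against 2.31 and 5.41. The 5 plasmacytoid dendritic cell genes together summed to 213, 434 and 402 CPM in B220 HIGH replicates 1, 2 and 3, with 1, 0 and 1 at 0. Tcf4, at a B220 HIGH mean of 266 ± 83.9 CPM, made up most of this level, and Bst2 stood at 58.1 ± 18.6 CPM. The sum therefore mainly follows Tcf4 and Bst2 and says little on Siglech. The part of such cells in the Ly6d and Ly6a levels was not tested.

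Ly6k and Ly6i are less studied in blood cells. Ly6k had 0, 6 and 0 counts in wt LSK replicates 1, 2 and 3 and 204, 0 and 74 in iMLL-ENL total (9.45, 0 and 3.26 CPM). The leukemic libraries were thus split, with replicate 2 at 0. Over the groups the counts were 278 against 6, 42.0 times the level (95% counting interval 19.0 to 115), an interval for counting error only. The gene was below the filter, and in the fit with no filter the log2 difference was 5.34 (SE 2.04, edgeR adjusted p = 0.118). Without iMLL-ENL total replicate 2 it was tested and called (log2 change 5.97, adjusted p = 0.00877). Without wt LSK replicate 1, 2 or 3 it was tested and not called (adjusted p = 0.185, 0.0863 and 0.179).

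In the sorted leukemic cells Ly6k had 44.1, 0.223 and 15.2 CPM in B220 LOW replicates 1, 2 and 3, the second from 3 counts, and 38.1, 4.88 and 41.1 CPM in B220 HIGH. Replicate 2 was the lowest in both fractions, as in iMLL-ENL total, and the fractions overlapped. The log2 difference was 0.61 (SE 1.31, edgeR adjusted p = 0.968).

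Ly6i had 0, 14 and 4 counts in wt LSK replicates 1, 2 and 3 and 0, 0 and 3 in iMLL-ENL total. Of the 18 wt LSK counts, 14 came from replicate 2. The gene was below the filter, and with no filter the log2 difference was -2.47 (SE 1.84, edgeR adjusted p = 0.376). In B220 LOW it had 0, 2 and 12 counts and in B220 HIGH 0, 25 and 62. Replicate 3 held the highest count in each of the 3 leukemic groups, and the fractions overlapped. The log2 difference of B220 HIGH from B220 LOW was 2.36 (SE 1.88, edgeR adjusted p = 0.877).

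In iMLL-ENL total against wt LSK, 2 of the 4 Ly6 genes that passed the filter on low counts were called, 1 in each direction, while Ly6c1, Ly6i and Ly6k stayed below it. Of all 13811 genes tested, 30.6% were called, 15.5% higher and 15.1% lower. The same 2 genes, Ly6a and Ly6c2, had no overlap between the groups' libraries, against 48.5% of all genes tested. The median log2 change over the 4 tested members was -1.24, and over all genes 0.05.

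In B220 HIGH against B220 LOW, edgeR with no replicate block called 0 of 5 tested Ly6 genes and 0% of all 12564 genes. Of all genes, 880 had an unadjusted p under 0.05 in that unpaired fit. Among the 5, only Ly6a had such an unadjusted p, and only Ly6a had no overlap between the fractions, against 13.4% of all genes. With the replicate block, 0 of the 5 were called, against 0.629% of all genes (79). DESeq2, which called 302 genes, and limma-voom, which called 1, also called 0 of them. DESeq2 gave no adjusted p for Ly6a, so it could not have called that gene.

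**Figure D3:**
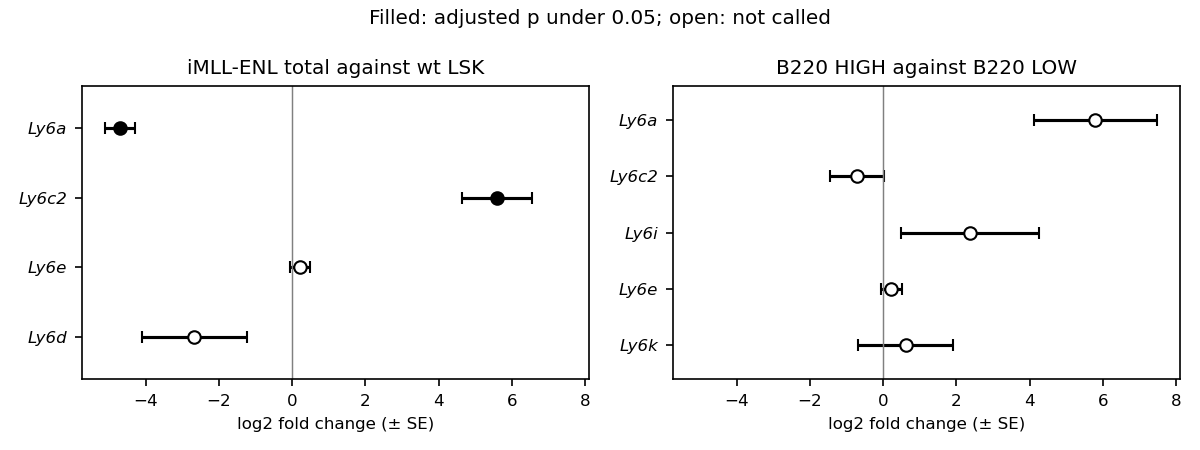
Log2 fold change with its SE for the Ly6 genes that passed the filter in each comparison, filled where the edgeR adjusted p is under 0.05. Neither fit used the replicate block. Ly6a (-4.71) and Ly6c2 (5.59) are filled in iMLL-ENL total against wt LSK, and no gene is filled in B220 HIGH against B220 LOW.

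**Figure D4:**
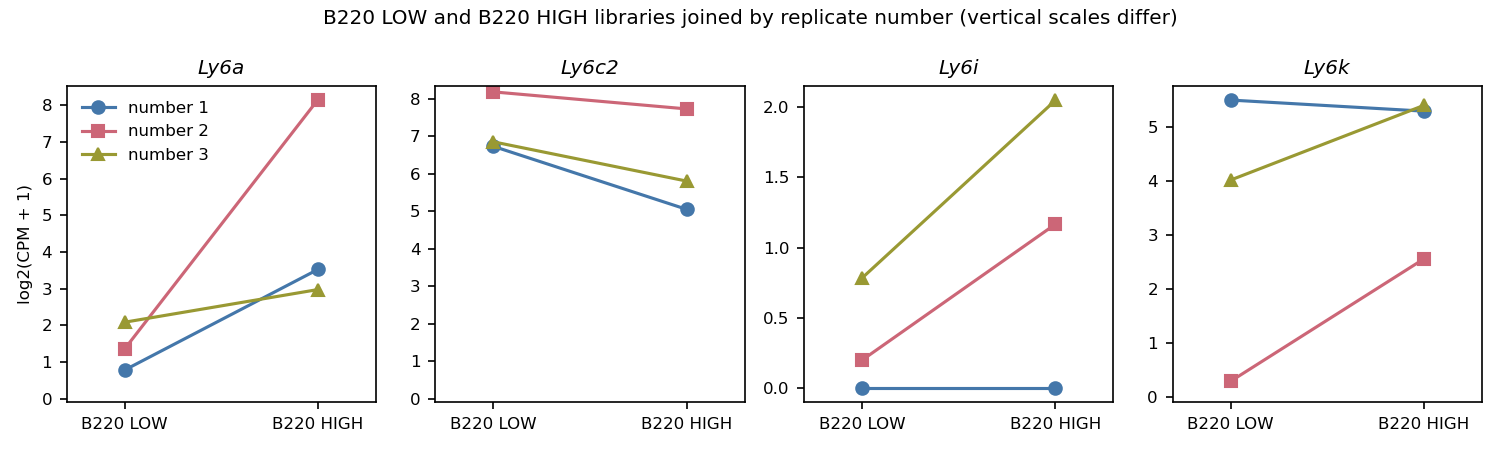
Levels as log2(CPM + 1) of Ly6a, Ly6c2, Ly6i and Ly6k in B220 LOW and B220 HIGH, with lines joining libraries of the same replicate number. Ly6a, whose fractions did not overlap under any pairing, is higher in B220 HIGH on all 3 lines, and Ly6c2 is lower on all 3. Neither gene passed the test, and Ly6k is lowest in number 2 in both fractions.

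Other genes of the wider Ly6 and uPAR family were mostly silent. Of 36 listed genes in the tables, 7 passed the filter in iMLL-ENL total against wt LSK. Of these, 2 were higher, 1 was lower and 4 were not called, with a median log2 change of 0.56. Of all genes tested, 30.6% were called, 15.5% higher and 15.1% lower. Cd177, a neutrophil surface gene, rose by 8.11 (SE 1.10, edgeR adjusted p = 0.00137), from 0.728 ± 0.876 to 175 ± 128 CPM. Its leukemic levels were 73.3, 133 and 319.5 CPM, against at most 1.70 CPM in wt LSK. Ly6g5b rose by 0.92 (SE 0.27, adjusted p = 0.0314), between means of 31.0 ± 7.96 and 52.7 ± 14.4 CPM. Lypd6b fell from 3.05 ± 1.48 CPM to 0 counts, at least 63.3-fold lower against the floor of 3 counts over the group (adjusted p = 0.00280). It was also at 0 in all 6 libraries of the B220 fractions.

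Genes that make the GPI anchor and genes of other GPI-anchored proteins were listed beside the Ly6 genes. Of 28 tested anchor synthesis genes, 3 rose and 25 were not called, with a median of 0.34, where 30.6% of all genes tested were called. Mppe1, which remodels the anchor, rose by 1.39 (SE 0.23, edgeR adjusted p = 0.00266), and Pigs, a subunit of the enzyme that attaches it, rose by 0.96 (SE 0.28, adjusted p = 0.0299). Of 19 tested genes listed for other GPI-anchored proteins of blood cells, 6 rose, 10 fell and 3 were not called, with a median of -1.71. Of all genes, 15.5% were called higher and 15.1% lower. The 6 include Ceacam1, an adhesion gene whose protein spans the membrane and has no GPI anchor, so its place on the list is an error. It rose from 18.1 ± 3.40 to 169 ± 36.6 CPM (adjusted p = 6.77e-05). Procr, among the 10 that fell, is also a doubtful entry. The counts are thus of listed genes, not of proven GPI-anchored ones. Art4, a blood group gene, fell from 906 counts to 2 (adjusted p = 6.63e-05).

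Interferon genes were listed because Ly6a, Ly6c and Ly6e can be induced by interferons. Of 25 response genes, 16 fell, 9 were not called and 0 rose, with a median of -1.79, where 15.1% of all genes were called lower. Their sums were 1084 to 1148 CPM in wt LSK and 246 to 346 CPM in iMLL-ENL total. Oasl2, an antiviral gene, fell by 6.94 (SE 0.33, edgeR adjusted p = 1.37e-05). Of 16 signalling genes, 2 rose, 5 fell and 9 were not called, beside 30.6% of all genes called. The called ones included Ifngr1, the interferon-gamma receptor gene, which rose by 2.58 (adjusted p = 9.62e-05), and Irf1, a transcription factor of the response, which fell by 1.59 (adjusted p = 0.00177). In the same libraries Ly6a fell, Ly6c2 rose and Ly6e was not called, and the part of the interferon genes in these values was not tested.

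In the B220 comparison edgeR on all 6 libraries of the fractions, with no block, called no gene of these lists. DESeq2 called 3 genes of the list of other GPI-anchored proteins and 2 of the interferon response genes. With all 12 libraries in one fit edgeR called 1 response gene, and without B220 HIGH replicate 1 it called 3 genes of the GPI-anchored list. With the replicate block in edgeR's fit, Ifitm1, an interferon response gene, was called higher in B220 HIGH (log2 change 1.94, adjusted p = 0.0107), as were the GPI-anchored Nt5e (1.40, 0.0149) and Cd14 (2.61, 0.0482). Of the myeloid markers beside Ly6c2, Ms4a3 (-2.32, 0.00283), Mpo (-2.53, 0.000701) and Elane (-3.56, 0.00235) were called lower in B220 HIGH and Adgre1 (2.70, 0.0313) higher. Of all genes, 0.629% were called with the block. The other tested monocyte and neutrophil markers were not called. Without the block their log2 differences were all positive: S100a9 1.90, S100a8 1.43, Ltf 1.38, Camp 0.89, Csf1r 0.72, Ccr2 0.51 and F13a1 0.12. The part of these myeloid markers in the Ly6c2 ratios was not tested.

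The genes whose levels over the 12 libraries were most like those of each variable Ly6 gene were taken by the root mean square difference of the centred log2(CPM + 1) profiles, among 10803 genes. For Ly6a the nearest were Fads3 (0.909), Cd96 (0.966), P2ry10 (0.968), Hmgn3 (0.995) and St8sia1 (1.001). For Ly6c2 they were Rhou (0.630), Mtus1 (0.685), Mgam (0.717), Mefv (0.729) and Gm12709 (0.730). The profile of Ly6c2 was thus matched more closely than that of Ly6a.

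For Ly6d the nearest were Klrd1 (0.421), Kmo (0.674), Siglech (0.688), Igll1 (0.822) and St8sia1 (0.857). All had their highest B220 fraction level in B220 HIGH replicate 2, as Ly6d did, which follows from picking them by likeness to Ly6d. For Ly6k they were Pbx3 (0.868), Clec2i (0.958), Acsbg1 (0.992), Gsn (1.12) and Glyat (1.17). St8sia1 was on the lists of both Ly6a and Ly6d. These measures describe the 12 libraries, which share sort, depth and mouse within a group or number to an unknown extent.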

How the data were processed

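RNA came from a PicoPure kit and unstranded NuGen Ovation libraries, per the labels' protocols. The authors deposited 2 tables of raw read counts per NCBI gene ID, one for iMLL-ENL total with wt LSK and one for the B220 fractions. The authors also deposited CPM tables, a signal that a check found to equal the counts over each table's own TMM effective library sizes (not used for values), and a gene width in bases (unit: other), used for levels per length. Per the submitters' processing notes, edgeR was used, with GRCm38 and mm10 as builds. Neither aligner nor read counter is given in the sources used here. RefSeq annotation of GRCm38.p6 gave symbols to 23968 of 24028 IDs, and 60 had none.

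Each comparison was fitted within its table over all genes with edgeR 4.0.16 (R 4.3.3): robust quasi-likelihood F test, TMM normalization, a filterByExpr minimum count of 10, two-sided p and Benjamini-Hochberg adjustment, called at an adjusted p under 0.05. SE is the log2 change over the square root of F. Alternatives were RLE factors, DESeq2 1.42.0, limma-voom (limma 3.58.1), no filter, a minimum count of 50, a replicate block, a fold change of at least 2, all 12 libraries in one fit, and each library left out. Leaving out both number 2 libraries was added after the data were seen. The test was tried on simulated counts. Floors are 3 counts over a group. Floors and the 95% exact binomial counting intervals cover counting error only. Sequences were aligned with Biopython 1.88.

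The members and gene lists were chosen with earlier results of these data known. Named genes were all 7 members, Kit and Ptprc, up to 2 called genes per list by smallest p, every called gene of the other Ly6 and uPAR list, and the 5 genes nearest in profile to members with a mean of at least 5 CPM and a range of at least 2 log2 units between group means, not every one of which is printed. Marker genes named for single libraries and genes called with the block were chosen after their values were seen. The other tested markers of the monocyte and neutrophil lists were named beside the latter. Ly6g, Ly6g2, Ly6l, Ly6a2 and Trbc2 were not analysed here. The labels do not say what replicate numbers mark. Deviations of same-numbered B220 HIGH and B220 LOW libraries from their group means correlated at 0.489, 0.237 and 0.383 for numbers 1, 2 and 3 over 10803 genes, each over 0.1. Unlike-numbered libraries of the fractions correlated at -0.360 to 0.0714. The bar of 0.1 alone does not mark a pair, since wt LSK replicate 3 and B220 HIGH replicate 1, of different genotypes, reached 0.257. On these correlations, same-numbered libraries of the fractions were treated as pairs in the ratios, the joined lines and the replicate block only. The main B220 test ignored the pairs. The correlations are not in the labels and leave the pairing an assumption.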

Additional observations from a re-analysis of the deposited data

How the results depend on the processing

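In iMLL-ENL total against wt LSK, 2 Ly6 genes were called under every alternative run except without iMLL-ENL total replicate 2, where Ly6k made 3. In B220 HIGH against B220 LOW, 0 were called under every alternative run. Alternative values of single Ly6 fold changes were compared where the main fit tested the gene and the alternative gave an adjusted p. This leaves out Ly6k in iMLL-ENL total against wt LSK, and Ly6a under DESeq2 in the B220 comparison. Of the 128 values compared, 127 kept direction and side of the threshold. Of the 127, 73 were in the B220 comparison, where the main fit called no gene at all. The 1 value that changed was for Ly6d in iMLL-ENL total against wt LSK. Ly6d ranged from -4.33 to 0.30 with a library left out and was 0.30 without wt LSK replicate 2. Over all genes, calls in iMLL-ENL total against wt LSK came to 2047 against a fold change of at least 2, 2411 with all 12 libraries in one fit, and 2636 (without wt LSK replicate 3) to 4528 with a library left out, with 2658 without wt LSK replicate 1. In the B220 comparison they came to 302 with DESeq2, 1 with limma-voom, 22 with no filter, 31 with all 12 libraries in one fit, 79 with the replicate block, and 0 to 96 with a library left out, the highest without B220 HIGH replicate 1 and 3 without B220 LOW replicate 1. The cause was not tested. In iMLL-ENL total against wt LSK, groups of different genotypes, the same-numbered libraries correlated at 0.0597, 0.275 and -0.0380. There the numbers were not treated as pairs, and the block left 2 Ly6 genes called. The block changed the call of no Ly6 gene. Counts of called genes in a list under an alternative differed by over 1.5 times from the main count, or moved to or from 0, in 35 cases. Among them were 5 other Ly6 and uPAR genes called without iMLL-ENL total replicate 3. In the B220 comparison no list had a call in the main fit, so any call there made a case. Depth limits Ly6c1 and Ly6i, which had at most 8 and 62 counts in a library.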
